A study of Homo sapiens with 12 samples.

Results

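The 40 genes described here encode the carriers that bring glucose and lactate across the plasma membrane and the enzymes of glycolysis, the pentose phosphate pathway, gluconeogenesis and the TCA cycle. They were chosen by gene name from a list of pathway genes, with earlier results of these data known although no measured value entered the rule, and all 40 were found among the 58302 genes of the expression table. By role they comprised 4 carriers, 9 enzymes of upper glycolysis, 6 of lower glycolysis, 2 forms of lactate dehydrogenase, 6 enzymes of the pentose phosphate pathway, 2 of gluconeogenesis and 11 of the TCA cycle. Glycolysis splits glucose into pyruvate in the cytosol, and lactate dehydrogenase reduces pyruvate to lactate, which leaves the cell through monocarboxylate carriers. The pentose phosphate pathway branches off at glucose 6-phosphate and yields NADPH and ribose 5-phosphate, and the TCA cycle oxidises acetyl groups in mitochondria. Clear cell renal cell carcinoma is known for high glycolysis and for low gluconeogenic enzymes such as FBP1.

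RNA was sequenced from 769-P and ACHN cells, established lines of human renal cell carcinoma, 48 h after transfection with siRNA against NUF2 (siNUF2), which the study describes as a mix of 2 siRNAs, or with a control siRNA (siControl). NUF2 is a subunit of the kinetochore complex that ties chromosomes to spindle microtubules. Each of the 4 groups (769-P siNUF2, 769-P siControl, ACHN siNUF2 and ACHN siControl) held 3 libraries, numbered 1 to 3 in the labels. Nothing states that these came from separate cultures, so p-values measure the spread between these libraries, which may be technical. The study grew 769-P cells in RPMI-1640 and ACHN cells in Eagle's MEM, so that cell line and medium cannot be told apart. Each line stands for 1 tumour.

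The deposited values were FPKM, read counts scaled to exon length and library depth, and between 29243688 and 38863974 reads per library were recovered from them. NUF2 itself was at 17.8 to 19.4 FPKM in 769-P siControl and 3.01 to 4.17 FPKM in 769-P siNUF2 (limma adjusted p = 0.00133), and at 11.6 to 15.0 FPKM in ACHN siControl and 2.16 to 5.14 FPKM in ACHN siNUF2 (0.235, and 0.0122 with the replicate number as a block). The groups did not overlap in either line (exact permutation p = 0.1 in each, the smallest that 3 against 3 libraries allow). Of 11 renal carcinoma markers, 10 reached 1 FPKM in at least 1 library, and the exception was CA9, a defining marker of clear cell carcinoma, which did not exceed 0.121 FPKM. Some were low in 1 line. By siControl means, KRT19 and EPCAM were at 0.183 and 0.834 FPKM in 769-P cells, against 277.5 and 14.6 FPKM in ACHN cells. CDH6 and CA12 were at 0.0007 and 0.50 FPKM in ACHN cells, against 6.17 and 62.3 FPKM in 769-P cells. None of 5 immune, 3 endothelial and 2 erythroid markers reached 1 FPKM, whereas 2 of 4 fibroblast and smooth muscle markers did so in ACHN cells, where the list summed to 1.40 to 6.21 FPKM. Mitochondrially encoded RNA took 22.9% to 26.2% of the summed FPKM in 769-P siControl and 20.2% to 21.4% in ACHN siControl, and its part in the differences between the cell lines was not tested. In such bulk RNA, fewer cells that express a gene and less RNA per cell cannot be told apart.

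Differences between 769-P and ACHN cells under siControl came first. On balance the metabolic genes stood higher in 769-P cells: 21 of the 39 members tested were higher and 4 were lower at an adjusted p under 0.05 (limma, Benjamini-Hochberg over all genes tested), while 30.3% of all 15373 genes tested were higher and 31% were lower. The 40 members summed to 5371, 5472 and 5479 FPKM in the 769-P libraries and to 3815, 3906 and 4162 FPKM in the ACHN libraries. Differences were taken on the scale of log2(scaled FPKM + 0.1), 769-P minus ACHN, and their median over the members tested was 0.40, against -0.01 over all genes tested. At a log2 difference of at least 1 either way, 12 members were higher, against a background of 13.9%, and 2 were lower, against a background of 18.4%.

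FBP1 was too low to test, at 0 in all 769-P libraries and 0.057, 0.420 and 0.187 FPKM in ACHN siControl. SLC2A3 entered the test through ACHN cells alone and ALDOC through 769-P cells alone, so both had to differ. Without them, 20 of 37 members were higher in 769-P cells and 3 were lower. At a log2 difference of at least 1 either way, 11 of these 37 were higher and 1 was lower, against 13.9% and 18.4% of all genes. The groups did not overlap for any of the 25 members called. They also did not overlap for TPI1 and GAPDH, which had higher values in 769-P cells, or for PFKM, PGD, RPE and FBP1, which had lower ones, but none of these was called. How often the groups did not overlap over all genes was not counted, so the lack of overlap is no result about the members as a set. Scaling by the upper quartile moved the median of all genes by 0.181 on the log2 scale, turned the calls over all genes from 4665 higher and 4770 lower to 5738 higher and 3911 lower, and gave 23 members higher and 3 lower.

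Of the 4 carriers, 1 was higher and 2 were lower in 769-P cells, and SLC2A3, among the lower ones, had to differ. Counts by role, here and below, stand beside 30.3% of all genes tested that were higher and 31% that were lower. SLC16A3 (MCT4, ENSG00000141526, chr17:82228397-82261129 on GRCh38) exports lactate from glycolytic cells. Its level was 42.2, 33.0 and 31.9 FPKM in the 769-P libraries and 0.772, 1.01 and 1.42 FPKM in the ACHN libraries. Every 769-P library thus stood far above every ACHN library, and the log2 difference was 4.96 ± 0.22 (SE; adjusted p = 7.85e-06). SLC16A1 (MCT1), the more widely expressed monocarboxylate carrier, overlapped between the lines, at 31.6 to 34.3 FPKM in 769-P and 28.0 to 50.9 FPKM in ACHN cells, and was not called (adjusted p = 0.491). SLC16A3 accordingly made up 51.6% ± 4.9 (SD, n = 3) of the summed FPKM of these 2 carriers in 769-P siControl and 2.76% ± 0.68 in ACHN siControl. Shares and rankings between genes, here and below, depend on the exon lengths behind FPKM. These take in all annotated exons of a gene, 8995 bases for SLC16A3 and 5312 for SLC16A1.

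SLC2A3 (GLUT3, ENSG00000059804, chr12:7919230-7936275), a glucose carrier of high affinity, showed the opposite pattern. It was listed at 0, 0.005 and 0 FPKM in 769-P siControl, which amounts to 1 read in the 3 libraries, and at 6.80, 4.07 and 5.25 FPKM in ACHN siControl, or 3418 reads. Relative to depth the ratio of reads, ACHN over 769-P, was 3052 with an exact 95% counting interval of 547 to 120593, which covers counting error only. SLC2A14, a close copy of SLC2A3, did not exceed 0.012 FPKM in any library. SLC2A1 (GLUT1), the glucose carrier of most cultured cells, was lower in 769-P cells, at 22.3, 21.7 and 17.1 FPKM against 25.4, 26.2 and 26.5 FPKM. That difference of -0.38 ± 0.12 on the log2 scale was small (adjusted p = 0.0309). It was lost under upper-quartile scaling (-0.20, adjusted p = 0.207), without a filter on low values (adjusted p = 0.052), and when any ACHN siControl library or 769-P siControl library 2 or 3 was left out (adjusted p = 0.054 to 0.082).

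Within upper glycolysis, which takes glucose to the triose phosphates, 4 of 9 members were higher in 769-P cells and none was called lower. The 4 include ALDOC, which had to differ, and 30.3% of all genes tested were higher. GPI, which turns glucose 6-phosphate into fructose 6-phosphate, measured 64.1, 59.0 and 54.5 FPKM in 769-P and 23.9, 19.5 and 16.6 FPKM in ACHN cells, a log2 difference of 1.56 ± 0.15 (adjusted p = 0.000146). Aldolase was represented by ALDOA, the main form in most cells, which was higher by 1.02 ± 0.08, and by ALDOC, a form best known from brain. ALDOC was near the detection limit, at 0.731, 0.969 and 1.09 FPKM (63, 91 and 103 reads) in 769-P and 0.076, 0.292 and 0.155 FPKM (7, 33 and 16 reads) in ACHN cells. Its log2 difference, on log2 of scaled FPKM plus 0.1, was 1.96 ± 0.34, which understates the change of so low a gene. The ALDOC groups did not overlap, although the ACHN libraries themselves spread widely.

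The kinases of upper glycolysis behaved unevenly. HK1 and HK2, which trap glucose in the cell as glucose 6-phosphate, were not called: HK1 was at 19.7 to 22.5 FPKM in 769-P and 17.1 to 26.7 FPKM in ACHN cells, and HK2 had a log2 difference of -0.51 ± 0.22 (adjusted p = 0.0796; without ACHN siControl library 2, -0.75 and 0.0034). HKDC1, a hexokinase gene outside the members, was higher than both, with siControl means of 48.8 FPKM in 769-P and 97.9 FPKM in ACHN cells. It was called lower in 769-P cells (-1.01, limma adjusted p = 0.00237), so HK1 and HK2 do not stand for the whole hexokinase step. Of the 3 phosphofructokinase genes, whose product commits sugar to glycolysis, PFKP, the platelet form, was higher in 769-P cells by 0.78 ± 0.09 (adjusted p = 0.000408), and PFKL and PFKM were not called. PFKP held the largest share of the 3 in both lines, at 84.4% ± 0.97 (SD, n = 3) in 769-P and 74.3% ± 0.55 in ACHN siControl. TPI1, which interconverts the triose phosphates, differed by 0.06 with a 95% interval of -0.13 to 0.26.

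Lower glycolysis runs from glyceraldehyde 3-phosphate to pyruvate, and 4 of its 6 members were higher in 769-P cells, against 30.3% of all genes tested. PGK1, the first step that yields ATP, was at 125, 129 and 131 FPKM in 769-P against 60.3, 44.3 and 50.7 FPKM in ACHN cells (log2 difference 1.31 ± 0.12, adjusted p = 0.000130). PGAM1, ENO2 and PKM were higher by 0.98, 0.99 and 0.87 on the log2 scale. PGAM4, a near copy that could share reads with PGAM1, was at 1.12 to 3.37 FPKM. The ENO2 values of ACHN siControl ran from 15.4 to 37.8 FPKM, close to the 41.3 to 47.0 FPKM of 769-P siControl at the upper end, and its call (adjusted p = 0.0289) was lost without any library but ACHN siControl 1 (0.064 to 0.091). GAPDH, the most abundant member in both lines, had means of 1252 ± 44.1 and 1050 ± 4.97 FPKM (SD, n = 3) and was not called (log2 difference 0.24, adjusted p = 0.0589), nor was ENO1, which ranked next. ENO1 overlapped between the lines. GAPDH was called higher under upper-quartile scaling (0.42, adjusted p = 0.00676).

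The 2 lactate dehydrogenase genes were both higher in 769-P cells. LDHA, whose product is best known for making lactate, measured 209, 212 and 210 FPKM against 134, 111 and 126 FPKM, a log2 difference of 0.75 ± 0.09 (adjusted p = 0.000491), and LDHB differed by 0.40 ± 0.09 (adjusted p = 0.00880). In FPKM, LDHB exceeded LDHA in every library of both lines, with shares of 70.5% ± 1.0 (SD, n = 3) and 75.3% ± 2.0 of their sum. The exon lengths behind these values were 2983 bases for LDHB and 6210 for LDHA.

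Promoter sequence is shown for 3 of the called genes of this arm and for HK2, which was not called, since ACGTG is the core of the hypoxia response element for which LDHA, PGK1 and HK2 are known. The 4 genes were picked after their values had been seen. Where a gene had several starts, as LDHA, SLC16A3 and HK2 did, the first window with a match was shown. A match in such a window was therefore given by the choice. Each run below holds the 250 bases before a RefSeq gene start on GRCh38.p14, forward strand, and capitals mark ACGTG or its reverse complement CACGT. Where these overlap as CACGTG, all 6 letters are in capitals and both strands count. The windows are LDHA at chr11:18394313-18394562, PGK1 at chrX:78103998-78104247, SLC16A3 (the second of its 5 starts) at chr17:82228792-82229041, and HK2 at chr2:74833877-74834126.
LDHA: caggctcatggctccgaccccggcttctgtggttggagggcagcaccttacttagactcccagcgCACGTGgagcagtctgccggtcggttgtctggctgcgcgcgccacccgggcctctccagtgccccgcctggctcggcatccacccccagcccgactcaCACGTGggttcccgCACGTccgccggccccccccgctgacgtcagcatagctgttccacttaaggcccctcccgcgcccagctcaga
PGK1: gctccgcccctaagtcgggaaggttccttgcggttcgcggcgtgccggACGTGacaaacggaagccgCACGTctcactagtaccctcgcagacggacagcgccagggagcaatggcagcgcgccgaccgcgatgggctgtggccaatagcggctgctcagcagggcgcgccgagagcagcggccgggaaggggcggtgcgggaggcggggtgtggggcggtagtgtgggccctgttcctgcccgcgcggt
SLC16A3: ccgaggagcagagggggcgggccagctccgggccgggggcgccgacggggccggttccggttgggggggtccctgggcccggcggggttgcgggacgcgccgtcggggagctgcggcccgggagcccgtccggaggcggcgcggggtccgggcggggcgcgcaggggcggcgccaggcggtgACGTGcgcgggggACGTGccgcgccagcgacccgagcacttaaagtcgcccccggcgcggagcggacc
HK2: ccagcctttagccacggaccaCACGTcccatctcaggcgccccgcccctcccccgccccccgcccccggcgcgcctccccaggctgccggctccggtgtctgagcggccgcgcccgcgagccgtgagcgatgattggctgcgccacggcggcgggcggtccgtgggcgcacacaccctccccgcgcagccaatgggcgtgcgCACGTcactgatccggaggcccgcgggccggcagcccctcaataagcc

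The LDHA window held 5 matches over both strands, and the other 3 windows held 2 each. Over the RefSeq promoters, 18.5% of 35116 windows of this length held a match. Counted by gene, with a match in any of a gene's windows, 14 of the 37 members with a window had one, compared with 29.2% of the 9728 tested genes with a window. OGDH, SLC16A1 and SLC2A3 had no window. A match was found for 8 of 20 members higher in 769-P cells, 6 of 13 not called and 0 of the 3 lower ones with a window. By role it was found for 7 of 9 members of upper glycolysis and 1 of 10 of the TCA cycle. A match describes these letters and is not a binding site.

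Of the 6 pentose phosphate genes, TALDO1 was higher and RPIA lower in 769-P cells. TALDO1, the transaldolase of the reversible arm, was at 122, 113 and 123 FPKM in 769-P and 39.6, 33.1 and 38.3 FPKM in ACHN cells, a log2 difference of 1.68 ± 0.09 (adjusted p = 1.89e-05). RPIA, which isomerises ribulose 5-phosphate to ribose 5-phosphate, went the other way, at 15.2, 13.2 and 13.2 FPKM in 769-P against 19.6, 22.1 and 19.8 FPKM in ACHN cells (-0.58 ± 0.10, adjusted p = 0.00289). Both separated every 769-P library from every ACHN library. TKT, the transketolase that works beside TALDO1, overlapped, with a log2 difference of 0.13 and a 95% interval of -0.26 to 0.52, and PGLS, PGD and RPE were not called.

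Gluconeogenesis was represented by PCK2 and FBP1. PCK2 (ENSG00000100889, chr14:24094053-24110598), the mitochondrial enzyme that makes phosphoenolpyruvate, was at 2.82, 2.30 and 1.75 FPKM in 769-P and 11.3, 11.6 and 10.6 FPKM in ACHN cells, a log2 difference of -2.27 ± 0.18 (adjusted p = 7.10e-05). No 769-P library came near the ACHN range.

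The TCA cycle was the arm with the most called members, 9 of 11 higher in 769-P cells, 6 of them by at least 1 on the log2 scale. Of all genes tested, 30.3% were higher and 13.9% were higher by at least 1. Its 11 members summed to 497 to 534 FPKM in 769-P siControl and 254 to 271 FPKM in ACHN siControl. IDH3A (ENSG00000166411, chr15:78131498-78171949), the catalytic subunit of the NAD-linked isocitrate dehydrogenase, was at 7.99, 6.89 and 5.91 FPKM against 1.77, 1.27 and 1.44 FPKM (log2 difference 2.13 ± 0.17, adjusted p = 7.98e-05). FH, fumarate hydratase (ENSG00000091483, chr1:241497603-241519761), was at 93.7, 98.4 and 102 FPKM against 27.1, 24.0 and 23.5 FPKM (1.96 ± 0.09, adjusted p = 7.78e-06). Both genes stood several-fold apart with no overlap between the lines.

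IDH2, the mitochondrial NADP-linked isocitrate dehydrogenase, was higher by 1.71 ± 0.23 (adjusted p = 0.000699), with 61.6, 91.7 and 88.6 FPKM in 769-P and 20.3, 31.9 and 21.3 FPKM in ACHN cells. Its cytosolic counterpart IDH1 overlapped between the lines, and so IDH1 held 27.8% ± 3.2 (SD, n = 3) of the sum of both in 769-P siControl and 58.0% ± 5.2 in ACHN siControl. SUCLA2, the ATP-forming subunit of succinyl-CoA ligase, was at 14.6 to 17.0 FPKM against 5.49 to 5.68 FPKM (1.45 ± 0.10, adjusted p = 3.65e-05). CS and SDHA were higher by 1.13 and 1.06, and MDH2, OGDH and SDHB by 0.80, 0.69 and 0.34. The SDHB call was lost without 769-P siControl library 1 or 2 (adjusted p = 0.059 and 0.054). MDH1, the cytosolic malate dehydrogenase, had a log2 difference of 0.00 with a 95% interval of -0.19 to 0.19. SDHA values are uncertain, because the pseudogenes SDHAP1 and SDHAP3, each at up to 8.91 FPKM against 17.4 FPKM for SDHA at its lowest, could share its reads. Antisense transcripts at 10.3% of SUCLA2 and 7.09% of IDH1, taken at their highest against the gene at its lowest, could not be told apart from their partners if counting ignored strand.

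Beyond the members, 62 further genes of the same pathways were listed, of which 45 could be tested between the lines, with 24 higher and 10 lower in 769-P cells, against 30.3% and 31% of all genes. Of the 45, PC, PDK3 and PKLR passed the filter through 769-P cells alone and so had to differ, and without these 3 the counts were 21 and 10 of 42. The 4 with the largest differences were SLC2A2, a glucose carrier of liver and kidney (4.35 on the log2 scale, means of 22.3 and 1.07 FPKM), PKLR, the liver and red cell pyruvate kinase (4.02, means of 2.11 and 0.029 FPKM), ENO3, the muscle enolase (-3.42, means of 2.25 and 25.9 FPKM), and PFKFB2, which sets fructose 2,6-bisphosphate (-3.23, means of 0.527 and 5.73 FPKM). SLC2A2, ENO3 and PFKFB2 had adjusted p of 0.000279 or less, whereas PKLR, as given above, had to differ.

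Next, siNUF2 was compared with siControl within each cell line. These comparisons share their siControl libraries with the comparison of the lines. Changes of the members were small in both lines, and 28 of 38 tested in 769-P and 30 of 38 tested in ACHN cells moved by less than 0.2 on the log2 scale. Same-numbered libraries deviated together within each line, so the fit was also made with the replicate number as a block, and its calls are given beside those without it.

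In 769-P cells without the block, SDHB rose and HK2 fell, 1 of 38 members each way, against 5.4% of 14157 genes tested that rose and 4.56% that fell. SDHB (ENSG00000117118, chr1:17018722-17054170), the iron-sulphur subunit of succinate dehydrogenase, was at 29.6, 28.9 and 27.6 FPKM with siNUF2 and 24.4, 22.6 and 21.7 FPKM with siControl. The groups did not overlap, and the log2 change was 0.34 ± 0.07 (adjusted p = 0.0338; with the block 0.00932). HK2 (ENSG00000159399, chr2:74833981-74893359) was at 4.67, 4.70 and 4.58 FPKM with siNUF2 and 5.90, 5.64 and 6.17 FPKM with siControl, again with no overlap, a change of -0.32 ± 0.07 (adjusted p = 0.0389; with the block 0.0193). Without the block, the SDHB call was lost when any library other than siControl 1 was left out (adjusted p = 0.081 to 0.108), and the HK2 call when any library was left out (0.085 to 0.123).

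With the block in 769-P cells, 7 members rose and 5 fell, which is 18.4% and 13.2% of the 38 tested, against 13.9% and 13.7% of all genes. PCK2 changed most, from 2.82, 2.30 and 1.75 FPKM in siControl libraries 1 to 3 to 4.71, 3.83 and 2.74 FPKM in the siNUF2 libraries of the same number. Each pair rose by 0.63 to 0.73 on the log2 scale, although the groups overlapped narrowly, and the mean change was 0.70 (adjusted p = 0.00634 with the block, 0.112 without). IDH1 (ENSG00000138413, chr2:208236227-208266074), which makes NADPH in the cytosol, went from 25.9, 29.2 and 37.4 FPKM to 18.7, 18.8 and 25.1 FPKM. All siNUF2 libraries lay below all siControl libraries, with a change of -0.55 (adjusted p = 0.00589 with the block, 0.0809 without).

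The other members that rose with the block in 769-P cells were PFKL (0.34), RPIA (0.27), CS, which opens the TCA cycle (0.26), SLC2A1 (0.22) and PGAM1 (0.22). Those that fell were IDH2 (-0.18), OGDH, a subunit of the 2-oxoglutarate dehydrogenase complex (-0.17), and ENO1 (-0.16). Their adjusted p with the block ran from 0.014 to 0.040, and none was called without it (0.0989 to 0.562). The count depended on the libraries: with the block, 4 members rose and 1 fell without the pair numbered 1, 1 rose and 1 fell without pair 2, and 7 rose and 4 fell without pair 3.

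In ACHN cells no member was called without the block, and no gene of the 15112 tested was called either, so that the backgrounds were 0% risen and 0% fallen. At an unadjusted p under 0.05 there were 3 members, RPIA, IDH1 and SDHB, and 1230 genes in all. With the block 7 members rose and 1 fell, 18.4% and 2.6% of the 38 tested, against 6.8% and 5.36% of all genes. This count also depended on the libraries: 1 rose and 1 fell without the pair numbered 1, 5 rose and 1 fell without pair 2, and none did without pair 3, where no gene of the table was called.

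PFKL (ENSG00000141959, chr21:44300051-44327376), the liver form of phosphofructokinase, changed most in ACHN cells, from 15.2, 9.29 and 12.4 FPKM in siControl libraries 1 to 3 to 23.0, 13.3 and 19.2 FPKM in siNUF2 libraries 1 to 3. The groups overlapped, but each pair rose by 0.51 to 0.63 on the log2 scale (mean 0.58, adjusted p = 0.0122 with the block, 0.639 without). IDH1 was at 21.5, 25.6 and 21.1 FPKM with siNUF2 and 31.9, 34.6 and 33.1 FPKM with siControl, a change of -0.54 with no overlap (adjusted p = 0.0138 with the block, 0.278 without). The share of IDH1 in the sum of IDH1 and IDH2 was 46.7% ± 1.2 (SD, n = 3) with siNUF2 and 58.0% ± 5.2 with siControl in ACHN cells, and 23.1% ± 3.5 and 27.8% ± 3.2 in 769-P cells.

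SLC2A3 rose from 6.80, 4.07 and 5.25 FPKM to 9.58, 5.67 and 7.01 FPKM in ACHN cells, pair by pair (0.47, adjusted p = 0.0166 with the block, 0.750 without), while in 769-P cells, at 0 to 2 reads per library, it was too low to test. RPIA (0.44), SDHB (0.32), CS (0.31), PGAM1 (0.28) and ALDOA (0.19) also rose with the block (adjusted p = 0.0210 to 0.0434). RPIA, SDHB, CS and ALDOA did not overlap between the siNUF2 and siControl libraries of ACHN cells. HK2 and PCK2, called in 769-P cells, had log2 changes of 0.00 and -0.01 in ACHN cells, where the 3 pairs went different ways.

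With the block, 6 members were called in both lines, each in the same direction: CS, PFKL, PGAM1, RPIA and SDHB rose and IDH1 fell. They are 50% of the 12 called in 769-P and 75% of the 8 called in ACHN cells. Over all genes, 1133 were called in both lines, which is 29% of the 3906 called in 769-P and 61.7% of the 1837 called in ACHN cells, and 98.1% of them had the same direction. An interaction term over all 12 libraries tested whether a change differed between the lines. No member of the 39 tested was called, without the block (0% of 16575 genes called in either direction, 772 of them and 0 members at an unadjusted p under 0.05) or with it (0.863% of genes more positive in 769-P cells and 0.561% more negative). With the block, 15 members and 3278 genes had an unadjusted p under 0.05, and the lowest adjusted p among the members was 0.0890, for HK2, whose change was lower in 769-P cells by 0.34 (95% interval -0.53 to -0.15). For PCK2 the difference was 0.70 (95% interval 0.21 to 1.19, adjusted p = 0.139 with the block).

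GAPDH, PKM and LDHA were not called in either line. Among 769-P libraries their log2 changes were -0.08, -0.09 and -0.09, and among ACHN libraries 0.06, -0.04 and -0.15. SLC16A3, which differed by 4.96 between the lines, changed by -0.06 with siNUF2 in 769-P cells (95% interval -0.37 to 0.25 without the block) and by 0.07 in ACHN cells (-0.65 to 0.78). FH, which differed by 1.96 between the lines, changed by -0.04 and 0.10 with siNUF2. SDHB, which differed by 0.34 between the lines, changed by 0.34 and 0.32.

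**Figure D1:**
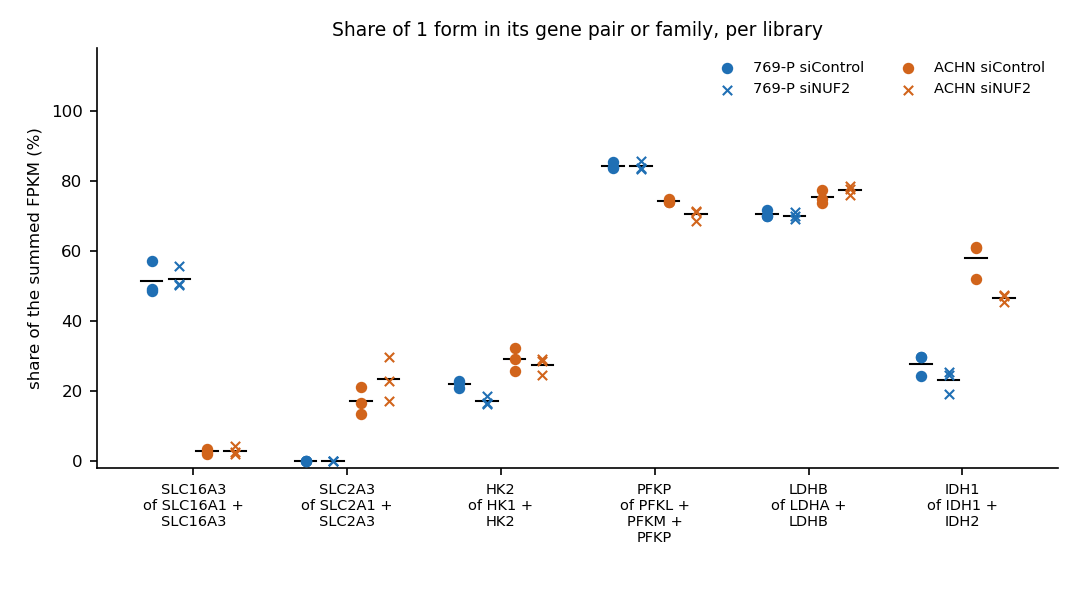
Share of 1 form in the summed FPKM of its gene pair or family (%), per library (points, siControl; crosses, siNUF2) in 769-P (blue) and ACHN cells (orange), with the mean as a black bar. SLC16A3 and IDH1 differ most between the cell lines, and the IDH1 share is lower with siNUF2 in ACHN cells, at 45.3% to 47.6% against 52.0% to 61.1%.

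Among the further pathway genes, 2 rose and 2 fell in 769-P cells without the block, of 45 tested (5.4% and 4.56% of all genes), and 6 rose and 6 fell with it (13.9% and 13.7% of all genes). ME1, the cytosolic malic enzyme that yields NADPH, rose by 1.20 (means of 8.60 and 3.71 FPKM, adjusted p = 0.00468). PGM2, a phosphopentomutase, fell by 0.96 (adjusted p = 0.0115) and PDP2, a phosphatase that activates pyruvate dehydrogenase, by 0.70 (adjusted p = 0.0146). In ACHN cells none of 42 was called without the block (0% of all genes), with 3 at an unadjusted p under 0.05. With the block 3 rose and 1 fell, against 6.8% and 5.36% of all genes. ME1 (0.56) and PFKFB3 (0.36) were among those that rose, and PGM2 fell by 0.61 (adjusted p = 0.0137 to 0.0477).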

How the data were processed

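The authors deposited FPKM, 1 value per gene and library, and their processing notes name hg38, HISAT2 2.0.5 and featureCounts 1.5.0-p3. The strand setting is not given in the sources used here. FPKM were scaled within a comparison by a trimmed mean of log ratios (30% and 5% trimmed). Genes at 0.5 or more in at least 3 libraries were fitted as log2(FPKM + 0.1) with limma 3.58.1 in R 4.3.3 (eBayes with a trend), with Benjamini-Hochberg adjustment over all genes tested and calls at an adjusted p under 0.05. The fit was tested on simulated data with the gene means and spreads of 769-P cells and independent noise in each library. Such data hold no shared deviation of same-numbered libraries. They therefore do not test the block under pairing, and ACHN spreads were not simulated. A fold on this scale understates changes of low genes.

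The members and lists were chosen with earlier results of these data known. The rule for full description took up to 8 called members at each end between the lines, and up to 12 by size with siNUF2, with the block where fewer than 6 were called. The rest are given in brief. The values of 1 further pathway gene are not reported here.

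Replicate numbers come from the labels. Deviations of same-numbered libraries from group means correlated in 769-P cells at 0.19, 0.271 and 0.36 and for ACHN at 0.463, 0.647 and 0.734, all above 0.1, so they were taken as pairs.

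Depth came from FPKM as multiples of 1 read over GENCODE 29 exon lengths: 97.7% to 98.1% of low values were whole within 0.1 read. Spread between libraries limits precision for most members. Counting error adds to it for ALDOC and FBP1, and limits SLC2A3 in 769-P cells. In ACHN siControl, ALDOC (7, 33 and 16 reads) and FBP1 (3, 28 and 11 reads) also spread widely between libraries. Alternatives were other scalings, filters and pseudocounts, the block, all 12 libraries in one fit, and each library left out. The block without each pair was added after the data had been seen. Tables used Python 3.11.15, pandas 2.3.3 and SciPy 1.17.1.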

Additional observations from a re-analysis of the deposited data

Results flagged for a closer look

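No member was called in the test of whether the siNUF2 response differed between the cell lines. Of the 45 further pathway genes tested, 4 were called in the fit of all 12 libraries with the replicate block, and none in the fit without it, by the same limma test. With the block, 2 were more positive and 2 more negative in 769-P cells, against 0.863% and 0.561% of all genes. PKLR, among the more negative, was too low in ACHN cells to show a response there.

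PKLR, the liver and red cell pyruvate kinase, differed by -1.37 on the log2 scale (769-P change minus ACHN change; adjusted p = 0.0491 with the block, 0.989 without). Its level was 1.23, 2.80 and 2.29 FPKM in 769-P siControl and 0.414, 0.956 and 0.733 FPKM in 769-P siNUF2, but at most 0.040 FPKM in ACHN cells, under the filter of 0.5.

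ACO1, the cytosolic aconitase, differed by -0.79 (adjusted p = 0.0469 with the block, 1.00 without), with a mean of 8.26 FPKM against 11.7 FPKM in siControl in 769-P cells, and of 25.8 ± 12.8 against 20.3 ± 7.6 FPKM (SD, n = 3) in ACHN cells.

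ME1 differed by 0.63 (adjusted p = 0.0368 with the block, 0.903 without), and rose with the block in both lines.

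TIGAR, which lowers fructose 2,6-bisphosphate, differed by 0.42 (adjusted p = 0.0465 with the block, 1.00 without), with means of 7.64 and 5.97 FPKM in 769-P siNUF2 and siControl and 18.0 and 19.0 FPKM in ACHN siNUF2 and siControl.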

How the results depend on the processing

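Between the cell lines the count of members higher in 769-P cells stayed between 18 and 23 over all alternatives run. The count of lower members was 3 to 6, and 2 to 4 with 1 library left out, with 2 without ACHN siControl library 1, where SLC2A1 was no longer called and SLC2A3 no longer passed the filter. As same-numbered libraries of the 2 lines did not deviate together (r from -0.054 to 0.044), the block was no pairing there, and left 21 higher and 4 lower. The calls lost between the lines were of SLC2A1, ENO2 and SDHB, and those gained were of GAPDH, TPI1, PFKM, RPE and HK2.

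For siNUF2 in 769-P cells, 1 member rose and 1 fell without the block, and 7 and 5 with it. Without a filter on low values 0 rose and 0 fell, with all 12 libraries in one fit 0 fell, and with 1 library left out 0 to 1 rose and 0 fell. The cause was not tested. In ACHN cells, 0 members rose and 0 fell in every setting without the block, and 7 and 1 with it. The interaction called 0 members in every setting run.

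Over the members followed by name, 164 of 171 values between the lines kept their direction and side of the threshold, and the 7 that lost the call were all of SLC2A1. With siNUF2, 156 of 180 in 769-P and 112 of 120 in ACHN cells did so, and none reversed in any comparison. The side kept with siNUF2 was mostly the uncalled one. Without the block, 2 of the 12 members followed in 769-P cells and none of the 8 in ACHN cells were called. Of the other values, 14 lost the call and 10 gained it in 769-P cells, and 8 gained it in ACHN cells. Reads were few for SLC2A3 in 769-P cells and for ALDOC and FBP1, whereas every other member had at least 218 reads in each library.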

Other observations

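Some members varied more between numbered libraries than between siRNAs, and the same number stood out in both groups. ENO2 in ACHN cells was at 37.8 FPKM in siControl library 1 and 37.6 FPKM in siNUF2 library 1, and at 13.5 to 18.3 FPKM in the other ACHN libraries. SLC16A1 was at 50.9 and 49.5 FPKM in libraries 3 of ACHN siControl and siNUF2, and at 28.0 and 25.9 FPKM in libraries 2. The labels do not say what a number stands for.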
